A study of Mus musculus with 4 samples.

Results

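Heart RNA collected 30 days after a neonatal injection was compared with heart RNA collected 7 days after it, across all genes with a symbol. The comparison used both day 30 arrays and both day 7 arrays, which are all 4 arrays of the series, and it covered 19505 genes. A change was counted only where both day 30 readings lay on the same side of both day 7 readings and where the change also passed a test across all genes. Injection was kept as a block.

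Between the first and the fourth week of life the mouse heart passes from growth by cell division to growth by enlargement of existing muscle cells. Fetal isoforms of contractile proteins give way to adult ones, mitochondria take over most of the energy supply with fatty acids and other oxidised fuels as substrates, and the loose matrix of the growing heart matures. Thyroid hormone, the fall of fetal growth factors and the onset of feeding and activity rhythms are known to accompany this period.

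The animals were offspring of ICR (Jcl:ICR) mice, an outbred strain. At postnatal day 1 they received either a viral vector carrying Tbx6, a T-box transcription factor of the early mesoderm, or phosphate-buffered saline (PBS). There was 1 array of heart RNA for each combination: PBS at day 7, Tbx6 at day 7, PBS at day 30 and Tbx6 at day 30 after injection. The growth protocol gives a site beneath the dorsal skin, whereas the treatment labels speak of the heart. PBS was not a vector control, so each Tbx6 array carries the vector as well as the gene. The promoter that drives Tbx6, and whether an RNA sample came from 1 heart or several, are not stated in the sources used here. The 2 arrays of a day therefore differed in injection, and the spread between them holds animals, arrays and injection together. Nothing in the labels says how the animals were drawn, so p-values concern these arrays alone. With injection as a block, they rest on how far the PBS and Tbx6 day differences disagree, pooled across genes. A gap between the 2 injections that recurs on both days does not enter them. Tbx6 itself was at background on all 4 arrays (a day difference of -0.30, not called), so its probe set does not show which hearts received the vector.

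The values are log2 array signals, so a difference of 1 is 2-fold. Background was set on each array by the highest of its 23 background probe sets (5.80, 5.77, 6.05 and 5.82 on the PBS day 7, Tbx6 day 7, PBS day 30 and Tbx6 day 30 arrays); a reading up to that level counts as background, and 42.8% to 45.6% of genes per array lay above it. Where both arrays of 1 day were at background, a second value, given as at least so much, sets those readings to the background level. The deposited scale ended at 19.93, and 7 genes reached that value on at least 1 array. Heart muscle markers were high on every array: Myl2, the ventricular regulatory light chain, read 19.80 to 19.82, Tnnt2, cardiac troponin T, 19.77 to 19.84, and Myh6, the adult myosin heavy chain, 19.75 to 19.93. These markers bear out the labelled tissue, but differences between days in genes this bright may be compressed by the end of the scale.

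Sex-linked genes separated the days. Eif2s3y, a Y-linked initiation factor gene, read 11.18 and 10.96 on the PBS and Tbx6 arrays of day 7, and 2.15 and 2.16 on those of day 30. Uty, a Y-linked demethylase gene, read 10.34 and 10.76 at day 7 and 3.43 and 3.28 at day 30, and Kdm5d read 6.11 and 5.93 at day 7 and 2.60 and 2.65 at day 30. All 3 were above background on both day 7 arrays and at background on both day 30 arrays. On the X chromosome, Kdm6a and Eif2s3x, the partners of Uty and Eif2s3y, which are known to escape X inactivation, were called higher at day 30 by 1.86 (SE 0.25) and 1.84 (SE 0.26), while Kdm5c (0.71) and Ddx3x (0.65) were higher without passing the test. The sex of the animals is not given in the labels. Y-linked RNA was thus present at day 7 and not detected above background at day 30, and sex and day cannot be told apart in any difference below. Of 798 X-linked genes, 4.76% were called higher and 6.39% lower, against 6.18% and 5.27% of the 18675 genes on neither sex chromosome.

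**Figure D1:**
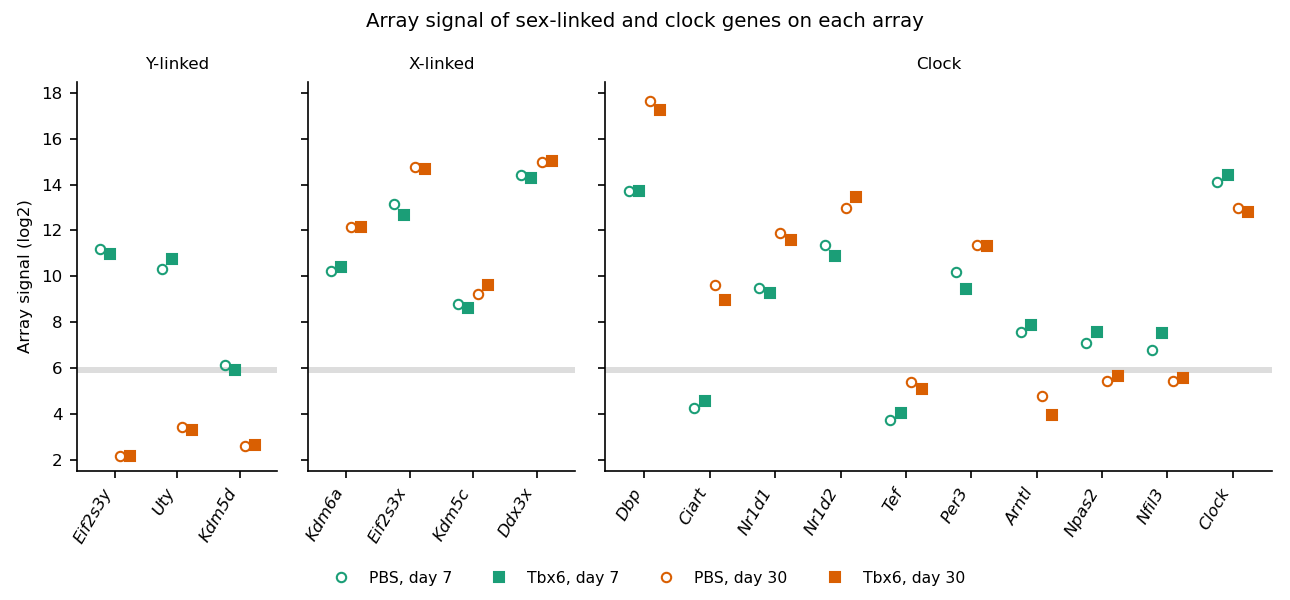
Array signal (log2, vertical axis) of Y-linked, X-linked and clock genes on each of the 4 arrays; open circles are PBS and filled squares Tbx6, green is day 7 and orange day 30, and the grey band spans the background levels of the 4 arrays. Eif2s3y and Uty lie above 10 at day 7 and below 4 at day 30, and the clock genes Dbp and Ciart are high where Arntl is low.

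The day difference was fitted with limma as an additive model of injection and day, with Benjamini-Hochberg adjustment over all 19505 genes and a threshold of 0.05. At this threshold 1192 genes were called higher at day 30 (6.11%) and 1039 lower (5.33%). Counts of called list members below are to be read against these shares. The model left 1 residual degree of freedom, so each SE rests mainly on the spread shared by all genes (a prior standard deviation of 0.264) more than on the gene's own readings. An exact permutation test of 2 arrays against 2 that ignores injection cannot go below p = 0.333. Exchanging days only within each injection allows fewer arrangements, so its lowest p is higher still. Of the called genes, 243 rose and 186 fell by at least 2 log2 units, and 214 had no array above background. The smallest called change was 0.91, so a gene that was not called is not thereby shown to be level. Days that did not overlap were common, with 25.1% of genes higher and 28.4% lower, and such an ordering alone is not read as a change.

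Both pairs of arrays gave much the same differences. The PBS pair and the Tbx6 pair share no array. Their day differences had a Pearson correlation of 0.671 across all genes and 0.801 across the 7884 genes above background on every array, where genes are not independent replicates and the sex difference was common to both pairs. At least 1 log2 unit of change in both pairs was reached by 1361 genes in the same direction and by 11 in opposite directions, and at least 2 units by 304 and 0 genes. With 1 array left out and day alone fitted, the calls fell to 753 higher and 587 lower without PBS day 7, 727 and 659 without Tbx6 day 7, 526 and 405 without PBS day 30, and 423 and 332 without Tbx6 day 30. Of the calls from all 4 arrays, 331 higher and 253 lower were made whichever array was left out. Below, counts with an array left out follow the same order of arrays and give the called members that were called again.

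**Figure D2:**
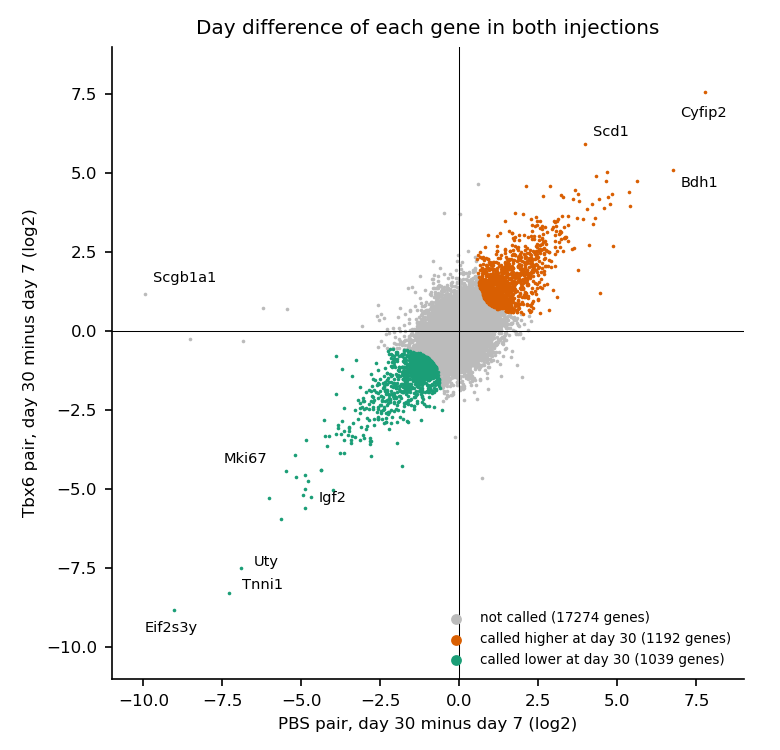
Day 30 minus day 7 (log2) of each of 19505 genes in the PBS pair (horizontal axis) and the Tbx6 pair (vertical axis), with the 1192 genes called higher in orange, the 1039 called lower in green and the others in grey. Called genes run along the diagonal from Eif2s3y and Tnni1 to Cyfip2, while Scgb1a1, high on the PBS day 7 array alone, lies far to the left.

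The largest gains covered actin control, lipid metabolism, clock output and muscle-specific genes. Cyfip2, a subunit of the WAVE complex that regulates actin branching, read 5.59 and 4.15 at day 7, both at background, and 13.37 and 11.74 at day 30, a change of 7.68 (SE 0.25, adjusted p = 4.14e-06) and at least 6.77. Scd1, which desaturates stearoyl-CoA, went from 9.32 and 8.94 to 13.28 and 14.86. Ptgds, which makes prostaglandin D2, went from 8.74 and 8.94 to 13.41 and 14.00. The 2 genes rose by 4.94 (SE 0.42) and 4.87 (SE 0.26). Plaat1, a phospholipid acyltransferase gene, and Mid1ip1, whose product stimulates acetyl-CoA carboxylase, were at background on both day 7 arrays and rose by at least 2.47 and 2.77. Muscle-enriched genes among the 15 largest gains were Klhl38 (4.31), Art1, an ADP-ribosyltransferase gene (4.24), Asb15 (4.04) and Rpl3l (4.39). Gsn, which encodes the actin-severing protein gelsolin, read 13.47 and 13.43 at day 7 and 17.67 and 17.46 at day 30, so the 2 readings of each day lay close together and the days far apart. Ifi207, an interferon-inducible gene with close relatives in its cluster, rose by 4.06.

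The largest losses were, besides the Y-linked genes, a fetal troponin, matrix genes, a potassium channel subunit, imprinted genes and genes of cell division. They were Tnni1, Mir675, Mfap2, Eln, Kcne1, Mki67, Mest, Ccna2, Igf2, Spon2, Postn, Ube2c and Ptn, with changes from -7.78 to -4.15. Spon2, a secreted matrix protein gene, read 9.02 and 8.14 at day 7 and was at background at day 30, a change of at least -2.65. Ptn, which encodes the growth factor pleiotrophin, read 10.56 and 9.42 at day 7 and 5.72 and 5.97 at day 30. The 30 genes with the largest changes stayed called whichever array was left out.

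Genes of mitosis and cytokinesis fell together. Of 55 measured members of the list, 41 were called lower (74.5%) and 1 higher, with a median of -1.76, against 5.33% lower and a median of -0.03 over all genes. Mki67, the proliferation marker Ki-67, read 10.78 and 11.04 at day 7 and 5.29 and 6.60 at day 30, a change of -4.96 (SE 0.31, adjusted p = 7.47e-05). Ccna2, cyclin A2, read 8.98 and 8.33 at day 7 and was at background at day 30, a change of at least -2.72, and Ube2c, a ubiquitin-conjugating enzyme of the anaphase-promoting complex, went from a day 7 mean of 7.75 to background (at least -1.82). Ccnb2, cyclin B2 (-3.40), Plk1, the mitotic kinase (-3.14, at least -2.02), and Racgap1, a cytokinesis regulator (-3.10, at least -1.45), were the next largest. Top2a, topoisomerase II alpha, fell by 1.76 and stayed above background, at 6.24 and 6.21. The gene that went the other way was Pttg1, securin, which read 8.27 and 8.17 at day 7 and 11.42 and 11.27 at day 30. Of the 41 lower calls, 13 had no array above background, Cdk1 among them, so their size says little. In RNA from whole hearts, fewer cells of a type and less RNA per cell cannot be told apart, here and in every group below. With an array left out, 34, 38, 31 and 24 of the 41 were called again.

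The promoters of these mitotic genes shared a short sequence. The cell cycle genes homology region, written here as TTTGAA or TTCGAA on either strand, is the element bound by the DREAM and MuvB complexes that restrain late cell cycle genes in resting cells. RefSeq promoters (GRCm38.p6, 250 bases before to 50 after the first listed start of each gene) were at hand for 34 of the 41 genes called lower. The element was present in 28 of the 34 (82.4%), against 17.4% of the 15691 tested genes with a promoter and 14.3% of the genes called lower outside this list. Within 50 bases of the start site it was present in 25 of the 34, against 4.38% of all. Of the mitotic genes that were not called, 9 of 11 with a promoter carried it too. Promoters of 5 genes above background at day 7 are shown from 120 bases before to 45 after the start site, with the element in capitals, to show where it lies in each. They lie at chr2:164769809-164769973 (plus strand) for Ube2c, chr7:122159315-122159479 (plus) for Plk1, chr9:61946755-61946919 (minus) for Kif23, chr5:30666766-30666930 (plus) for Cenpa and chr7:135716335-135716499 (minus) for Mki67.
Ube2c: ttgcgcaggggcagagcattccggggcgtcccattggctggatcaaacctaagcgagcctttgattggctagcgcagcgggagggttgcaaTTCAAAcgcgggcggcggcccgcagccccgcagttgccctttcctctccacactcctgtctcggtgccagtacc
Plk1: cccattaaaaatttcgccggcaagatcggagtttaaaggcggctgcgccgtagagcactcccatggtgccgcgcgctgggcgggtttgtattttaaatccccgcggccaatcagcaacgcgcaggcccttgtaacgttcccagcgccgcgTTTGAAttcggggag
Kif23: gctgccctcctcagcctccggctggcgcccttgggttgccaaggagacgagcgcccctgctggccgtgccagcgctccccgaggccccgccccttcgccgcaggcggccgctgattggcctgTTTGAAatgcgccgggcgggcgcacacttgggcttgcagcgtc
Cenpa: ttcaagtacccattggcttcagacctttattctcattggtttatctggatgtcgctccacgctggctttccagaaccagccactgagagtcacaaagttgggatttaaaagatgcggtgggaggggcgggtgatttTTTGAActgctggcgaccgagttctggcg
Mki67: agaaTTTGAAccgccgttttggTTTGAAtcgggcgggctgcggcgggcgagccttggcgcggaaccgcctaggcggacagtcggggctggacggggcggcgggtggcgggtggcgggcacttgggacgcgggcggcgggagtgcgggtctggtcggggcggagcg
The first 4 hold 1 match each, close to the start site, and Mki67 holds 2, farther upstream. Kif23, a kinesin of the cytokinetic midzone, fell by 1.55 (from 8.12 and 7.67 to 6.06 and 6.62). Cenpa, the centromeric histone, fell by 1.08 (from 9.74 and 10.22 to 8.66 and 9.15). Matches of the same kind thus lay in the printed promoters of genes with small and large changes alike. Those of Plk1, Kif23 and Cenpa lay after the start site. A match is a description of the letters and does not show that the site was bound.

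DNA replication genes were lower to a smaller extent. Of 46 members, 20 were called lower (43.5%) and 0 higher, with a median of -0.91. No array was above background for 5 of the 20. Mcm2, a subunit of the replicative helicase, fell from 7.91 and 7.17 to readings at background, a change of at least -1.61. Pcna, the sliding clamp, fell by 1.27, from 13.63 and 13.41 to 12.17 and 12.34, and thus stayed bright at day 30. Rrm2, a ribonucleotide reductase subunit, fell to background (at least -0.95). Of the 20, 9, 12, 7 and 5 were called again. Promoters called lower in this list held the cell cycle element in 2 of 17 and a core site of E2F factors (GCGGGAA or GGCGGGA, either strand, which overlap in part) in 8 of 17 (47.1%), against 18.1% of all promoters. The E2F site was in 26.5% of promoters of all genes called lower. It was also in 8 of 17 promoters of tricarboxylic acid cycle genes called higher, so it did not mark the falling genes alone.

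Histone genes that are transcribed during DNA synthesis showed the same direction. Of 54 such genes, 30 were called lower (55.6%) and 1 higher (1.85%), with a median of -1.39. No array was above background for 1 of the 30. With an array left out, 25, 28, 24 and 22 of the 30 were called again. H2ac22 fell by 3.74 and H3c10 by 3.54. H3c14 and H3c15 carried identical readings on all 4 arrays (13.50, 13.19, 9.12 and 8.80), and near-identical copies of these genes cannot be told apart by short probes. All 29 of the called-lower histone genes with a promoter held a CCAAT box (CCAAT on either strand), which 38.8% of all promoters hold. Promoters of the histone genes that were not called were not scored, so the box is not tied to the fall.

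Regulators of the cycle were more often lower than higher. Of 30 E2F, Myb and brake genes, 11 were called lower (36.7%) and 1 higher (3.33%). No array was above background for 3 of the 11. E2f8, a late E2F repressor (-2.03, at least -0.58), Cdk6 (-1.30) and Ccnd3, cyclin D3 (-1.17), were lower. Cdkn1a, which encodes the inhibitor p21, also fell, from 9.88 and 9.22 to 7.71 and 7.61 (-1.89, adjusted p = 0.00279). Tfdp2, a dimerisation partner of E2F factors, rose by 1.76. Among the lower calls 7, 8, 5 and 4 were made again with an array left out.

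**Figure D3:**
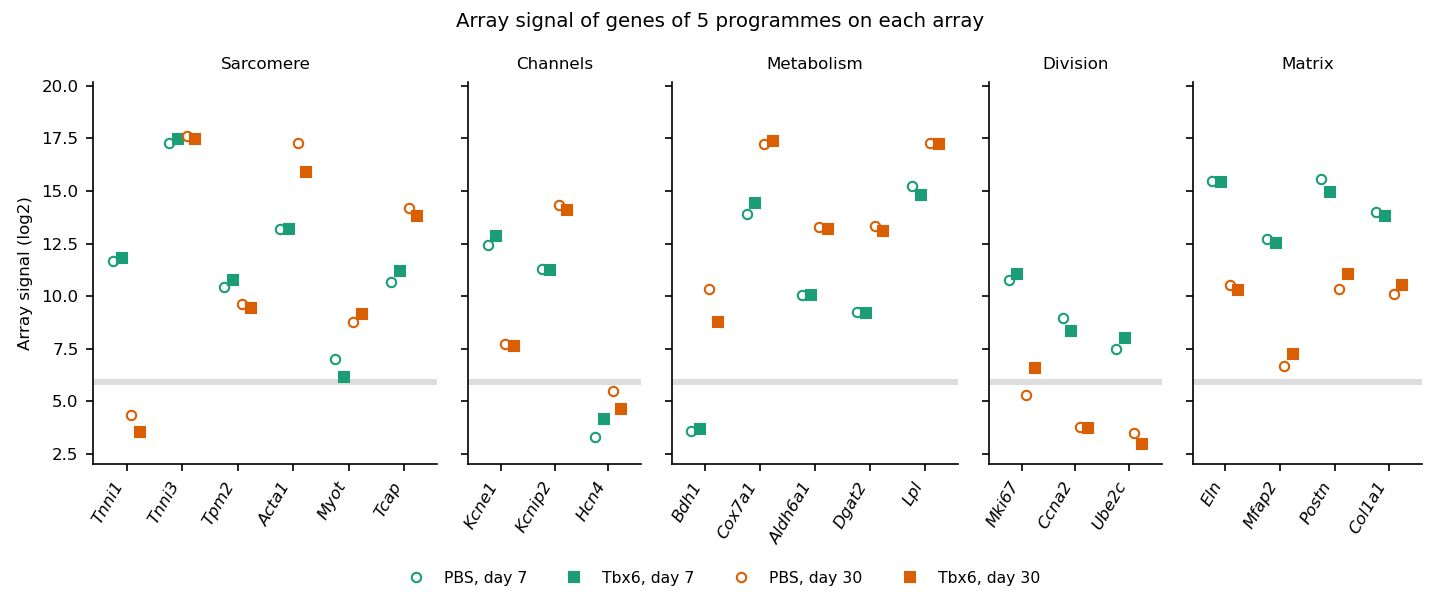
Array signal (log2, vertical axis) of genes of 5 programmes on each of the 4 arrays; open circles are PBS and filled squares Tbx6, green is day 7 and orange day 30, and the grey band spans the background levels of the arrays. Tnni1, Kcne1, the division genes and the matrix genes are lower at day 30, Tnni3 reads 17.27 to 17.63 throughout, and Bdh1 goes from background to 10.32 and 8.78.

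In the contractile apparatus the change was large in few genes. Tnni1, slow skeletal troponin I, the fetal isoform, read 11.65 and 11.80 at day 7 and 4.36 and 3.53 at day 30, a change of -7.78 (SE 0.30, adjusted p = 8.7e-06) and at least -5.79. Tnni3, the adult cardiac troponin I, read 17.27 and 17.46 at day 7 and 17.63 and 17.46 at day 30, and did not pass the test. The isoform that replaces Tnni1 was therefore already bright at day 7. Myh7, the fetal myosin heavy chain, read 16.27 and 15.52 at day 7 and 14.78 and 14.95 at day 30, a difference of -1.03 that did not pass (adjusted p = 0.0582). Acta1, skeletal alpha-actin, often called a fetal isoform in the rodent heart, rose from 13.18 and 13.19 to 17.28 and 15.92 (3.42, SE 0.34). Of 16 fetal sarcomere genes 2 were called lower (12.5%), Tnni1 and the tropomyosin gene Tpm2 (-1.06), and 1 higher (6.25%), Acta1. The shares over all genes were 5.33% and 6.11%. Tpm2 kept its call only without PBS day 7.

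Of 27 adult sarcomere and Z-disc genes, 6 were called higher (22.2%) and 2 lower (7.41%), against 6.11% and 5.33% of all genes. The sign of the list's median (0.05) changed with the scaling. Tcap, telethonin, which caps titin at the Z-disc, rose from 10.65 and 11.18 to 14.21 and 13.79 (3.08, SE 0.30). Myot, myotilin, rose by 2.38, Cryab, the small heat shock protein of the sarcomere, by 1.77, Xirp2 by 1.39 and Fhl2 by 1.17, and desmin, Des, from 14.97 and 15.06 to 16.12 and 15.91. Synpo2l (-1.91) and Xirp1 (-1.09) fell. With an array left out, 4, 5, 2 and 4 of the 6 rises were called again, and Synpo2l but not Xirp1 was called each time.

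Calcium handling was led by modulators. Ryr2, the calcium release channel, read 15.98 to 16.39 and Casq2, calsequestrin, 16.98 to 17.60, without a call, and Atp2a2, the calcium pump of the sarcoplasmic reticulum, stood at the end of the scale on every array. Of 24 genes, 5 were called higher (20.8%, against 6.11% of all genes) and 0 lower. S100a1, a calcium sensor that acts on the pump and the release channel, rose from 11.24 and 11.70 to 13.75 and 13.74 (2.28, SE 0.26). Tecrl, whose loss is known to cause catecholaminergic arrhythmia, rose by 2.17, and Cacna2d1, an auxiliary calcium channel subunit, by 1.54. Hrc (1.25) and Ank2 (0.97) completed the 5, of which 3, 4, 3 and 3 were called again with an array left out.

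Potassium channel subunits moved in opposite directions. Kcne1, the accessory subunit of the slow delayed rectifier, read 12.44 and 12.87 at day 7 and 7.73 and 7.64 at day 30, a change of -4.97 (SE 0.26, adjusted p = 4.04e-05). Its pore-forming partner Kcnq1 read 8.63, 8.56, 8.61 and 9.15 in the order of the arrays and was not called. Kcnip2 and Kcnd2, subunits of the transient outward current that shortens the adult mouse action potential, rose by 2.94 (from 11.28 and 11.23 to 14.31 and 14.09) and 1.75 (from 7.90 and 7.52 to 9.54 and 9.38). Kcnj2, the main inward rectifier, and Kcnj3 rose by 1.49 and 1.56, and Kcna4 fell by 1.06 within background. In all, 6 of 23 were called higher (26.1%) and 2 lower (8.7%), against 6.11% and 5.33% of all genes. Of the 6, 1 had no array above background. Without each array 2, 3, 4 and 2 of the rises were called again. Kcnip2 and Kcnd2 were called each time.

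Among 18 other channel and gap junction genes, 2 were called higher (11.1%) and 3 lower (16.7%), against 6.11% and 5.33% of all genes. Cacna1g, a T-type calcium channel of the young heart, fell from 9.19 and 7.37 to 5.79 and 5.97, with the day 7 readings far apart, and its call was lost without Tbx6 day 30 or PBS day 30. Gja5, connexin 40, fell by 1.82 and Gjc1, connexin 45, by 1.29, while Gja1, connexin 43, read 16.94 and 16.50 at day 7 and 15.87 and 15.88 at day 30 (-0.85, not called). Scn4b, a sodium channel beta subunit, rose by at least 0.59 and Clcn1 by 1.68. Hcn4, the pacemaker channel, was at background on all arrays.

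**Figure D4:**
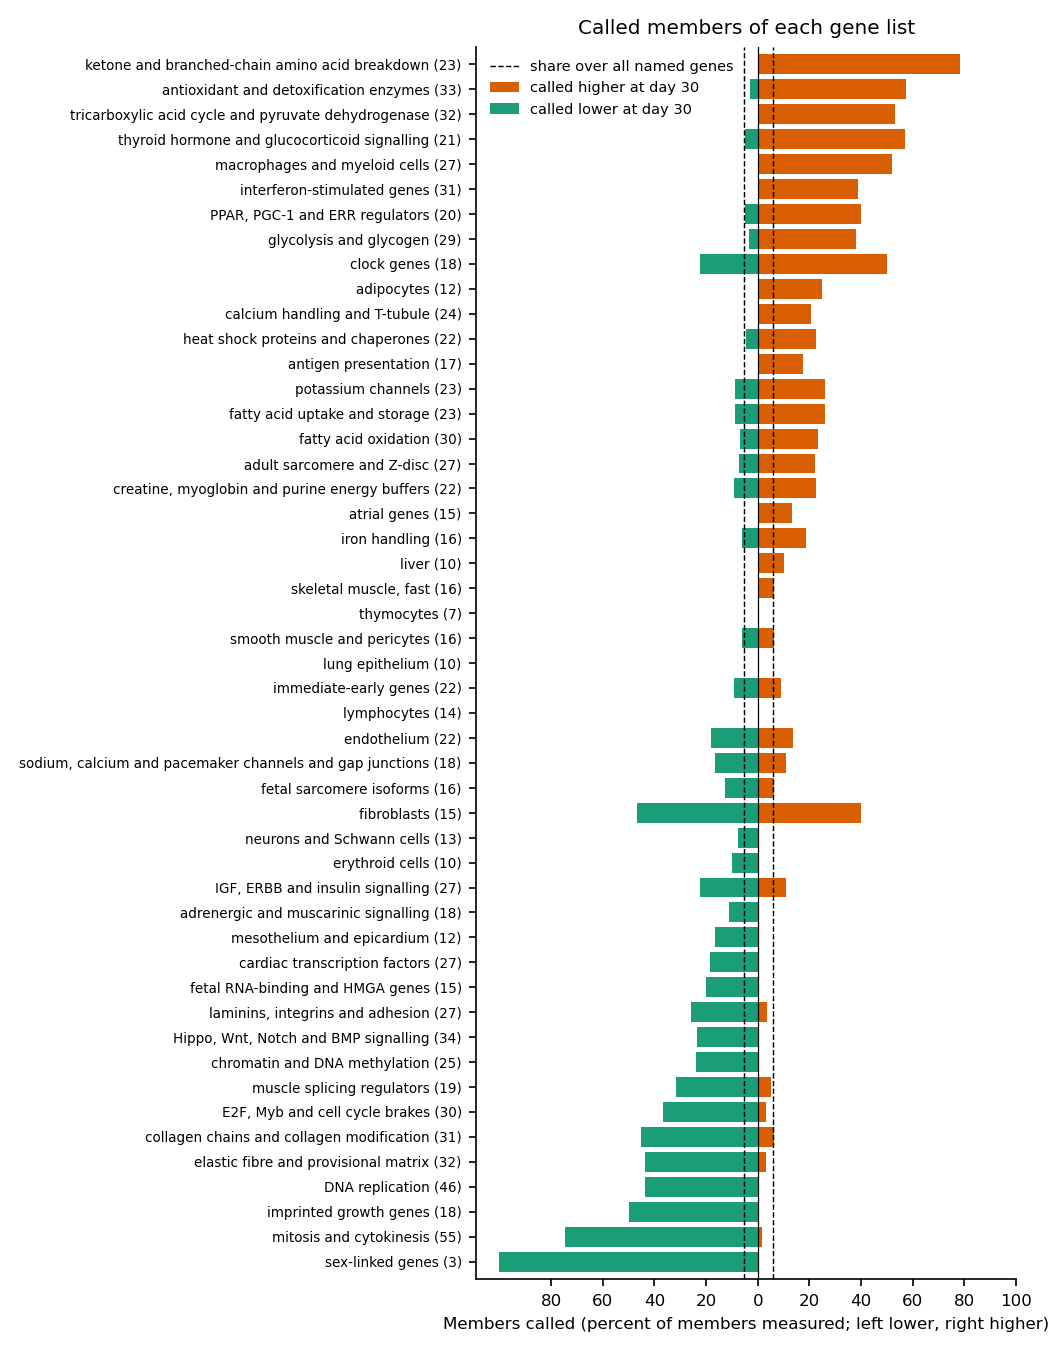
Percent of the measured members of each of 49 gene lists that were called higher (orange, to the right) or lower (green, to the left) at day 30, with the number of members in brackets and dashed lines at the shares over all genes (6.11% and 5.33%). Ketone and branched-chain amino acid breakdown heads the figure with 18 of 23 higher, and mitosis, with 41 of 55 lower, stands at its foot above the 3 sex-linked genes.

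Oxidative metabolism rose most where ketones and branched-chain amino acids are broken down. Of 23 genes of that list, 18 were called higher (78.3%) and 0 lower, with a median of 2.03. Bdh1, which oxidises the ketone body 3-hydroxybutyrate, read 3.57 and 3.69 at day 7 and 10.32 and 8.78 at day 30, a gain of at least 3.77. Oxct1, which activates acetoacetate in the same route, rose from 14.38 and 14.69 to 17.39 and 17.15 (2.74, SE 0.27). Subunits of the branched-chain ketoacid dehydrogenase rose, with Bckdha at 2.82, Bckdhb at 2.40 and Dbt at 2.75, together with its activating phosphatase Ppm1k (3.18, from 8.75 and 9.29 to 12.12 and 12.28) and the transaminase Bcat2 (2.95). Further along, Ivd (3.04), Mccc1 (3.15), Mccc2 (2.03), Aldh6a1 (3.19) and Mmut (2.06) rose. With an array left out 15, 17, 14 and 15 of the 18 were called again.

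The tricarboxylic acid cycle and pyruvate dehydrogenase followed with smaller changes in more abundant genes. Of 32 members 17 were called higher and 0 lower, with a median of 1.02. Got1, an aspartate aminotransferase of the malate shuttle, rose from 14.13 and 14.41 to 16.92 and 16.48 (2.43, SE 0.28). Sdha, the flavoprotein of succinate dehydrogenase, rose from 11.36 and 10.67 to 13.43 and 13.39 (2.39, SE 0.27), and Ogdh, of the oxoglutarate dehydrogenase complex, by 1.53. Cs, citrate synthase, rose by 1.10, while Idh3a (0.84) did not pass. These calls depended on the arrays more than those of the ketone list: 10, 13, 6 and 4 of the 17 were called again. Quantile normalisation lowered the median to 0.82.

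Fatty acid oxidation itself leaned higher with smaller changes. Of 30 genes 7 were called higher (23.3%) and 2 lower (6.67%), against 6.11% and 5.33% of all genes. The median was 0.46 (0.31 after quantile normalisation). Cpt1b, the muscle form of the carnitine transferase that admits fatty acids to mitochondria, read 15.33, 15.28, 15.30 and 15.46 and thus stayed level across the 4 arrays (0.08, not called). Its liver form Cpt1a fell by 1.03, from 10.85 and 10.84 to 9.53 and 10.10, and Ucp3 by 1.01. Cpt2, the inner membrane partner, rose from 9.77 and 10.27 to 11.98 and 12.31 (2.12, SE 0.25). Echs1 (1.71), Decr1 (1.41), Acads (1.17), Ehhadh (at least 0.98), Acacb (1.05) and Acadm (0.94) made up the other rises. Hadha and Acadl were near 17 on every array and not called. The rises were called again in 5, 3, 4 and 2 cases and neither fall was.

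Fuel uptake and storage genes rose in part. Lpl, lipoprotein lipase, rose from 15.23 and 14.83 to 17.30 and 17.23 (2.24, SE 0.25), and Dgat2, which makes triglyceride, from 9.27 and 9.20 to 13.32 and 13.08 (3.96, SE 0.25). Lpin1, a phosphatidate phosphatase, rose by 2.29. The fatty acid transporter Cd36 read 16.41 to 16.88 and was not called. Angptl4, an inhibitor of lipoprotein lipase, fell by 1.54 and Fabp5 by 1.53. The list held 6 higher (26.1%) and 2 lower calls (8.7%) among 23 genes, against 6.11% and 5.33% of all genes. Of the rises 3, 5, 3 and 3 were called again, Lpl, Dgat2 and Lpin1 each time.

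Genes of sugar metabolism were more often higher than lower. Of 29 genes of glycolysis and glycogen, 11 were called higher and 1 lower, with a median of 0.80 (0.60 after quantile normalisation). Slc2a4, the insulin-responsive glucose transporter GLUT4, rose from a day 7 mean of 9.03 to 12.21 and 11.98 (3.06, SE 0.25). Slc2a1, GLUT1, which is known as the transporter of the fetal heart, rose as well, from 7.13 and 7.02 to 9.58 and 9.35 (2.39, SE 0.25). Hk2, the hexokinase of adult muscle, rose by 2.53, and Hk1 read 13.42, 13.66, 13.49 and 12.96 without a call. Pfkp, the platelet form of phosphofructokinase, was the fall (-1.14). With an array left out 7, 7, 3 and 3 of the 11 were called again, and those 3 transport and hexokinase genes were among them each time.

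Among energy transfer and respiratory chain genes, some isoforms changed. Cox7a1, the heart and muscle isoform of a cytochrome oxidase subunit, rose from 13.89 and 14.43 to 17.22 and 17.38 (3.14, SE 0.26, adjusted p = 0.00023), and Cox8b, another muscle isoform, by 1.05. The ubiquitous isoforms Cox6a1 and Cox8a fell by 1.21 and 1.06. Cox7a2 and Cox6a2, the partner isoforms of Cox7a1 and Cox6a1, were not called (0.30 and 0.08). Cox6a2 read 18.69 to 18.85, a bright signal on every array. Ckmt2, the sarcomeric mitochondrial creatine kinase, rose from 13.15 and 14.12 to 16.18 and 16.20 (2.55), and Ampd3, an AMP deaminase, by 2.41. Mb, myoglobin, stood at 19.74 to 19.93, at the end of the scale. Of 37 complex I subunits 10 were called higher and 0 lower, with a median of 0.63, led by Ndufs7 (1.88) and Ndufb2 (1.68). Of those 10 calls 3, 7, 2 and 1 were made again with an array left out. The calls of Cox8a and Cox8b were lost whichever array was left out, and that of Cox6a1 was made again without PBS day 7 and no other array. Cox7a1, Ckmt2 and Ampd3 were called each time.

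Ribosomal protein genes leaned in opposite directions by compartment. Of 76 mitochondrial ribosomal protein genes 17 were called higher (22.4%) and 0 lower (median 0.57), led by Mrpl55 (1.90) and Mrpl34 (1.58). With an array left out, 8, 9, 3 and 2 of these calls were made again. Of 60 cytosolic ribosomal protein genes 1 was called higher (1.67%) and 8 lower (13.3%), against 6.11% and 5.33% of all genes. Their median was -0.55, and 41 of 60 were lower without overlap, against 28.4% of all genes. The higher one was Rpl3l, the striated muscle paralogue of Rpl3. Rpl3l read 6.89 and 7.24 at day 7 and 11.65 and 11.26 at day 30 (4.39, SE 0.28). Rpl3 read 14.34 and 14.21 at day 7 and 13.00 and 12.52 at day 30 (-1.51, SE 0.25). The pair thus moved in opposite directions on both pairs of arrays. Of the 8 lower calls 4, 2, 2 and 0 were made again. Other protein synthesis families showed no such lean. Of 48 initiation factor genes 2 were called higher (4.17%) and 1 lower (2.08%), with a median of 0.00. Of 31 aminoacyl-tRNA synthetase genes 2 were called higher (6.45%) and 0 lower, with a median of 0.17. Splicing factors of the Srsf and Hnrnp families had 9 of 27 called lower (33.3%) and 0 higher, led by Srsf5 (-1.35) and Srsf4 (-1.33). Of the 9, 3, 4, 0 and 0 were called again.

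Several regulators of fuel use rose. Ppara, the nuclear receptor for fatty acids, rose from 8.35 and 8.13 to 9.88 and 9.85 (1.62, SE 0.25), and Rxrg, a retinoid receptor partner, from 9.53 and 9.31 to 11.65 and 11.19. Klf15, a transcription factor of fuel use with a daily rhythm, was at background at day 7 and read 7.21 and 8.08 at day 30, a gain of at least 1.86. Ppargc1a, the coactivator of mitochondrial genes, read 15.12 and 15.81 at day 7 and 15.33 and 15.82 at day 30, so its spread between injections exceeded its difference between days. Ppargc1b fell by 1.30 and Esrrg (0.82) did not pass. In all 8 of 20 were called higher (40%) and 1 lower (5%), and 4, 4, 5 and 4 of the rises were called again. No array was above background for 1 of the 8.

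Genes of thyroid hormone and glucocorticoid action were mostly higher, 12 of 21 against 1 lower, with a median of 1.32. The receptor Thrb rose by 1.42 (from 7.10 and 6.98 to 8.30 and 8.63) as Thra fell by 1.03 (from 10.48 and 10.85 to 9.55 and 9.72). Thrsp, a thyroid hormone target of lipid synthesis, rose from a day 7 mean of 6.68 to 9.85 and 10.46 (3.47). Glucocorticoid targets included Zbtb16, which read 8.81 and 9.54 at day 7 and 13.63 and 13.90 at day 30 (4.59, SE 0.26, adjusted p = 4.85e-05), Fkbp5 (1.97), Tsc22d3 (1.59) and the metallothionein gene Mt2 (3.14). Pdk4 (-1.40), Sgk1 (0.46) and Per1 (0.67), of the same list, were not called. Sgk1 (-0.68 in the PBS pair and 1.61 in the Tbx6 pair) and Per1 (-0.24 and 1.57) differed in direction between the pairs. The receptor Nr3c1 was not called (-0.05), and Hsd11b1, which makes active glucocorticoid, rose by at least 0.97. Calls were made again for 12, 10, 9 and 7 of the 12. Several of these genes also follow the time of day, and the clock genes differed as well.

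Clock genes differed in antiphase groups. The clock is a loop in which Clock, Arntl and Npas2 activate Per, Nr1d and PAR-domain genes through E-boxes, and the products of the latter act back. Dbp, a PAR-domain activator, read 13.73 and 13.71 at day 7 and 17.65 and 17.25 at day 30 (3.73, SE 0.26). Ciart, a repressor of the loop, went from background to a day 30 mean of 9.29, a gain of at least 3.50. Nr1d1 (2.34), Nr1d2 (2.08), Bhlhe41 (2.22), Per2 (1.62), Per3 (1.53), Bhlhe40 (1.47) and Tef (1.36, within background) were called higher too. On the opposite side Arntl fell from 7.58 and 7.89 to 4.77 and 3.96, a change of at least -1.80, and Npas2 (at least -1.41), Nfil3 (at least -1.23) and Clock (-1.39) fell. That made 9 of 18 higher and 4 lower. Of the rises 8, 8, 6 and 7 were called again, and of the falls 4, 4, 3 and 2. The hour at which hearts were taken is not given in the labels, so hour of collection and day cannot be told apart for these genes.

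The Ciart promoter is shown because it held the most E-boxes (CACGTG, in capitals) among the called clock genes with a promoter. It lies at chr3:95882184-95882348 on the minus strand (GRCm38.p6), from 120 bases before to 45 after the start site, with 3 matches.
Ciart: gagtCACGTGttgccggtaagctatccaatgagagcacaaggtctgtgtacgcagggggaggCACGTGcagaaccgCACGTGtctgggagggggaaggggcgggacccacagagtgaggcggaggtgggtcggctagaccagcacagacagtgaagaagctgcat
Among the clock genes called higher, 3 of 7 with a promoter held a CACGTG (Ciart, Tef and Bhlhe41), against 8.18% of all promoters and 0 of 4 of those called lower.

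Imprinted growth genes, which favour growth before weaning when expressed from the paternal copy, were lower. Of 18 members 9 were called lower (50%) and 0 higher, and 1 of the 9 had no array above background. Igf2, insulin-like growth factor 2, read 17.71 and 17.46 at day 7 and 12.93 and 12.73 at day 30 (-4.76, SE 0.25, adjusted p = 4.04e-05). Mest read 17.06 and 17.32 at day 7 and 12.19 and 12.35 at day 30 (-4.92, SE 0.25). Both were thus among the brightest genes at day 7 and still well above background at day 30. Plagl1, a transcription factor of the imprinted network (-3.20), Peg3 (-3.04), the amino acid transporter Slc38a4 (-3.02), Grb10 (-1.43) and the clearing receptor Igf2r (-0.93) fell as well. Of the 9, 7, 7, 5 and 6 were called again.

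Mir675, the microRNA gene held in the H19 transcript beside Igf2, had the fourth largest loss. Its probe set read 13.42 and 13.15 at day 7 and 7.77 and 7.22 at day 30 (-5.79, SE 0.25, adjusted p = 2.01e-05). A probe set for a hairpin inside a longer transcript cannot tell the mature microRNAs from the host RNA, and H19 itself was not analysed here. The hairpin lies on chromosome 7 from 142577064 to 142577147, minus strand, in GRCm38.p6. The RefSeq mature sequences are given with the seed, bases 2 to 8, in capitals, since the seed sets the targets of each arm.
miR-675-5p: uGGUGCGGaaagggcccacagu
miR-675-3p: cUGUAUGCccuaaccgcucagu
The 2 arms carry different seeds.

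Growth factor signalling around the muscle cell changed less. Of 27 IGF, ERBB and insulin genes 3 were called higher (11.1%) and 6 lower (22.2%), against 6.11% and 5.33% of all genes. Irs1, an insulin receptor substrate, fell from 9.72 and 9.29 to 7.36 and 7.43 (-2.11, SE 0.26), and Igf1r (-1.01), Igf1 (-1.10), Erbb4, the neuregulin receptor (-1.27), Erbb2 (at least -0.68) and Igfbp4 (-1.16) fell. Pik3r1, the regulatory subunit of phosphatidylinositol 3-kinase, rose from 12.04 and 11.90 to 14.40 and 14.42 (2.44). Fgf1 rose by 2.76 with day 7 readings of 11.17 and 9.19, and Fgf13 by 1.16. Among the falls 1, 1, 1 and 2 were called again with an array left out, Irs1 each time.

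Extracellular matrix genes fell widely. Of 31 collagen and collagen-modifying genes 14 were called lower and 2 higher, with a median of -0.79. Col1a1 read 14.01 and 13.79 at day 7 and 10.12 and 10.54 at day 30 (-3.57, SE 0.27), and Col3a1 17.20 and 17.19 at day 7 and 13.91 and 13.84 at day 30 (-3.32, SE 0.25). These are the fibrillar collagens of the interstitium. Col5a1 (at least -2.61), Col1a2 (-2.98), the crosslinking enzymes Lox (-3.54) and Loxl1 (-2.26), and the basement membrane chain Col4a2 (-2.04) fell with them. The collagen prolyl hydroxylases P4ha1 and P4ha2 rose (1.05 and 1.12), with 0, 1, 0 and 0 of the 2 called again. Of the 14 falls 10, 12, 10 and 11 were called again.

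Elastic fibre and provisional matrix genes held the largest falls of the matrix. Of 32 members 14 were called lower (43.8%) and 1 higher (3.12%), with a median of -0.92. No array was above background for 2 of the 14. Eln, elastin, read 15.47 and 15.43 at day 7 and 10.51 and 10.27 at day 30 (-5.06, SE 0.25). Mfap2, a microfibril protein, went from 12.71 and 12.51 to 6.68 and 7.24 (-5.65, SE 0.28). Postn, periostin, of the growing and the injured heart, went from 15.55 and 14.95 to 10.34 and 11.03 (-4.57, SE 0.33). Fn1, fibronectin (-2.62), Aspn, asporin (-2.35), and Fbn2, fibrillin 2 (at least -1.28), also fell. The exception was Fbln1, fibulin 1, which rose by 1.22. Of the falls 10, 10, 10 and 9 were called again with an array left out. Of 27 laminin, integrin and adhesion genes 7 were called lower (25.9%, against 5.33% of all genes), led by Lamb1 (-1.81) and Lamc1 (-1.52). Of these 7, 5, 6, 2 and 1 were called again. The 1 called higher (3.7%, against 6.11% of all genes) was Sgcd (0.97).

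Fibroblast markers did not move as one. Of 15, 6 were called higher (40%) and 7 lower (46.7%), against 6.11% and 5.33% of all genes. Tcf21, the fibroblast transcription factor, fell from 8.70 and 9.19 to 6.96 and 7.49, Dpt, dermatopontin, from a day 7 mean of 13.90 to 12.55 and 12.34, and Meox1 to background (at least -0.20). C7, a complement component, rose from 6.04 and 6.37 to 8.45 and 8.30, and Dpep1 (2.09), Pi16 (1.31), Abca8a (1.17) and Wif1 (1.06) rose beside Gsn. The rises were called again in 3, 4, 2 and 4 cases and the falls in 4, 4, 3 and 3.

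Vascular genes changed in single members. Of 22 endothelial genes 3 were called higher (13.6%) and 4 lower (18.2%), against 6.11% and 5.33% of all genes. The VEGF receptor Flt1 rose from 10.37 and 10.29 to 12.27 on both day 30 arrays (1.94), the water channel Aqp1 rose by 2.32 and Rgcc by at least 0.76. Kdr, the other VEGF receptor, fell from 14.64 and 14.67 to 13.63 and 13.61 (-1.03), Aplnr fell by 1.47, Erg from 11.43 and 10.94 to 9.75 and 9.81, and Cldn5 from 8.07 and 7.57 to 6.68 and 6.47. The general markers Pecam1 (-0.69) and Cdh5 (-0.91) did not pass. The 4 falls were called again in 0, 3, 0 and 0 cases. Of 16 smooth muscle and pericyte genes 1 was called lower (6.25%) and 1 higher (6.25%), near the shares over all genes (5.33% and 6.11%). The fall was Mcam, a cell adhesion gene, from 11.04 and 11.39 to 8.44 and 8.68. The rise was Des, whose call was lost whichever array was left out.

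Macrophage genes were higher at day 30. Of 27 members 14 were called higher (51.9%) and 0 lower, with a median of 0.99. No array was above background for 2 of the 14. Folr2 and Cd163, markers of resident cardiac macrophages, were at background at day 7 and read 8.21 and 8.50, and 7.21 and 7.34, at day 30, gains of at least 2.57 and 1.49. The complement genes C1qb and C1qc rose by 2.97 and at least 2.42, Lyz2, lysozyme, from 10.35 and 9.77 to 12.40 and 12.82, and Csf1r, the growth factor receptor of the lineage, by 1.69. Lyve1 (1.92) and Mrc1 (1.54) rose too, whereas Adgre1, F4/80, read 7.15, 6.85, 7.01 and 7.58 and was not called. Calls were made again for 11, 10, 10 and 8 of the 14. Of 31 interferon-stimulated genes 12 were called higher and 0 lower, with a median of 0.80 and 4 of the 12 at background on all arrays. Ifit3 rose by 2.30 (from 5.47 and 6.09 to 8.08 in both) and Oasl2 by at least 1.08, and 9, 5, 5 and 2 of the 12 were called again. Antigen presentation genes called higher were H2-T23 (at least 1.77), H2-Aa (1.46) and H2-Ab1 (1.21), 3 of 17 (17.6%, against 6.11% of all genes). B2m, which read 17.45 and 15.60 at day 7, varied more between injections than between days. The calls of H2-Aa and H2-Ab1 were made again without PBS day 30 and no other array. Of 14 lymphocyte genes 13, Cd3e, Cd79a and Ms4a1 among them, were at background on every array.

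Antioxidant and detoxification genes formed another large group of rises. Of 33 members 19 were called higher (57.6%) and 1 lower, with a median of 1.19. Gstk1, a mitochondrial and peroxisomal glutathione transferase, rose from 8.44 and 9.55 to 13.84 and 13.52 (4.69, SE 0.35). Gstm7 rose by 3.96, Gsta3 by at least 2.32, Gstm1 by 2.65 and Gstm2 by 2.69. Transferases of the Gstm group are close in sequence, so their probe sets may share signal. Aldh2, mitochondrial aldehyde dehydrogenase, rose from 10.31 and 9.96 to 13.39 and 13.47 (3.30) and Nqo1, a quinone reductase, from 6.57 and 6.42 to 9.29 and 9.28 (2.79). Sod2, mitochondrial superoxide dismutase, rose by 1.19 and Hmox1, haem oxygenase 1, fell by 1.05. With an array left out 15, 16, 13 and 12 of the 19 were called again, and Hmox1 under none of these omissions. Small heat shock proteins of muscle, Hspb8 (2.36) and Hspb6 (1.68), rose too. Their list had 5 of 22 higher (22.7%, against 6.11% of all genes) and 1 lower (4.55%, against 5.33%), Atf4 (-1.24). Of the iron genes, Cp, ceruloplasmin, rose by 3.13 and Hjv by 1.77, and Heph, hephaestin, fell to background (at least -1.20).

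Cardiac transcription factors were called lower or not called. Of 27, 5 were called lower and 0 higher. Tbx20, a T-box factor of the heart, fell from 16.58 and 16.53 to 13.84 and 14.14 (-2.56, SE 0.25, adjusted p = 0.000569). Gata6 (-1.21), Srf (-1.13), Tcf21 (-1.72) and Wt1 (-1.14) were the others. Wt1 was at background on 3 arrays, and its sign turned (0.06) when readings at background were raised to that level. Gata4 (-0.74), Nkx2-5 (-0.21), Mef2c (-0.22) and Tbx5 (-0.01) did not pass. Tbx20 alone of the 5 was called whichever array was left out.

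Chromatin and developmental signalling genes showed the same direction. Of 25 chromatin genes 6 were called lower (24%, against 5.33% of all genes) and 0 higher. Among them were Tet1 (from 9.18 and 9.72 to 7.10 and 7.19, -2.31), Tet2 (-1.63), Ezh2, the methyltransferase of the polycomb complex (-1.87), and Dnmt1, the maintenance DNA methyltransferase (-1.39). Of 34 Hippo, Wnt, Notch and BMP genes 8 were called lower (23.5%) and 0 higher. Sfrp2 (-1.96) and the Wnt receptor Fzd2 (-1.95) were called with each array left out, and 4, 6, 3 and 2 of the 8 were called again. The fetal genes Sox4 (-2.50) and Nrk (-2.59) fell to background, and Lin28a, Lin28b and Hmga2 were at background at both ages. Of 19 muscle splicing regulators 6 were lower (31.6%), Ptbp1 (-1.28) and Rbm20 (-1.08) included, and 1 was higher (5.26%, against 6.11% of all genes), Rbfox1 (1.09). Omission of an array left 1, 1, 0 and 0 of these 6 calls, and 5, 6, 5 and 3 of the 6 among chromatin genes.

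Genes of other tissues were examined for tissue carried over with the heart. Of 10 lung epithelial genes 0 were called, but Scgb1a1 read 12.89 and Scgb3a1 10.80 on the PBS day 7 array and both were at background on the other 3. Fat markers varied between arrays without following the day: Adipoq read 7.98, 6.08, 7.49 and 9.83, and Ucp1, of brown fat, 11.92, 7.60, 5.69 and 8.34. The median day difference of the adipocyte list was -0.53 in the PBS pair and 1.68 in the Tbx6 pair. Of its 12 genes 3 were called higher (25%, against 6.11% of all genes), Dgat2, Slc2a4 and Retn (at least 1.32), the first 2 of which heart muscle also expresses. Scd1 and Thrsp, named above, also read highest on the Tbx6 day 30 array (14.86 and 10.46), and a share from fat was not tested. Liver, fast skeletal muscle, thymocyte and nerve lists had 8 of 10, 13 of 16, 5 of 7 and 11 of 13 members at background on all arrays. Alas2, the haem synthesis gene of red cells, read 12.52 and 10.73 at day 7 and 9.24 and 9.82 at day 30 and was called lower, a call made again without Tbx6 day 7 and no other array. Single genes stood out in these and other small lists. Ncam1, a neural adhesion gene that young heart muscle also expresses, changed by -2.25, Aldh1a2, the retinoic acid synthase of the epicardium, by -2.85, and Pde4b, a cyclic AMP phosphodiesterase, by -2.36. Trf, transferrin, of the liver list, rose by 2.20. These 4 were called with each array left out. Of 15 atrial genes 2 were called higher (13.3%, against 6.11% of all genes) and 0 lower. Clu rose by 2.39 and Gpr22 by 1.06, while Nppa (19.43 to 19.93), Sln (0.87) and Myl7 (-0.78) were not called. The Clu call was made whichever array was left out, and the Gpr22 call under none of these omissions.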

How the data were processed

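Heart RNA of 4 samples was labelled as single-stranded cDNA and hybridised to Clariom S mouse arrays, 1 array for each injection and day. The authors deposited log2 signals per probe set, summarised by SST-RMA in Affymetrix Expression Console 1.4 per the submitters' processing notes. The base of the logarithm is inferred from the range of the values. The table held 28846 probe sets, of which 19572 had a single symbol (none had several), 2634 were transcripts without a symbol and 6640 were controls. For 55 genes with more than 1 probe set, the one with the highest mean over all arrays was used, which left 19505 genes. No filter on low values was applied.

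The day difference was fitted with limma 3.58.1 in R 4.3.3 as an additive model of injection and day (1 residual degree of freedom), and tested on simulated data. There, 21 of 100 changes of 1 log2 unit, 100 of 100 changes of 2 units and 26 of 19305 unchanged genes were called. Most 2-fold changes were thus missed in the simulation. It held a smaller share of changed genes than were called in the data, which makes the adjusted threshold stricter. Its spread was drawn from the fitted model, with no injection effect. These rates therefore need not hold for the arrays. A call needed a Benjamini-Hochberg adjusted p under 0.05 over all genes and days that did not overlap. Summaries and figures used Python 3.11.15, pandas 2.3.3, numpy 2.4.6 and matplotlib 3.10.9. The 49 gene lists, the 21 families and the comparison itself were chosen with earlier results of these data known. Named genes are the 15 largest changes in each direction, the first 4 members of each list and up to 6 called members per direction, 2 for families. Predicted genes, near-identical copies and genes with no array above background were left out of the largest changes. Further list members named here were chosen after their values were seen. The alternatives were day alone, each array left out with day alone, a filter on low values, a variance trend, robust fitting, quantile normalisation, median centring, raising readings to the background level, averaging probe sets and asking for a 2-fold change. The number of arrays limits the precision. Promoter and microRNA sequences are from RefSeq (GRCm38.p6).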

Additional observations from a re-analysis of the deposited data

Results flagged for a closer look

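Of the 11 genes whose day differences were at least 1 log2 unit in opposite directions in the PBS pair and the Tbx6 pair, 6 were above background on at least 1 array and are given here, and the difference between the pairs was not tested because each pair holds 1 array per day. Scgb1a1, a secretory gene of the airway lining, had a day difference of -9.95 in the PBS pair and 1.18 in the Tbx6 pair. Cidec, of fat droplets, had -1.24 and 1.75, and Pck1, a gluconeogenic enzyme of liver and fat, -1.51 and 1.42. Ctsk, cathepsin K, had -1.63 and 1.38. Fggy, a carbohydrate kinase gene, had 1.83 and -1.06, and Retsat, a retinol saturase gene, 1.28 and -1.04.

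Of the 2634 transcript probe sets without a gene symbol, 806 lay above background on every array. At least 2-fold differences in both pairs were found for 86 of them in the higher and 73 in the lower direction at day 30. They entered no comparison above.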

How the results depend on the processing

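The counts of 1192 higher and 1039 lower genes stayed within 1.5 times under each alternative that kept all 4 arrays: 1091 to 1578 higher and 909 to 1383 lower, with the fewest where a 2-fold change was asked for in addition. Without the injection block, which joins the arrays of 1 injection, 1169 and 1057 genes were called, and the block is a shared treatment and not shared animals. Leaving out PBS day 7, Tbx6 day 7, PBS day 30 or Tbx6 day 30 gave 753, 727, 526 and 423 higher and 587, 659, 405 and 332 lower genes, and 351, 383, 271 and 233 called members of lists and families, against 523. Each such fit has 3 arrays, and the lone array of a day is assumed to vary like the others. Raising readings at background to the background level turned the sign of Cks1b (0.07), Wt1 (0.06), Zfp57 (0.02) and Zfp618 (0.01), all called lower otherwise. Of 404 named genes, 308 were called, 267 of these under every alternative with all 4 arrays and 152 whichever array was left out. Readings at background give bounds alone, and signals near the end of the scale cannot show a rise.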
